A study of Mus musculus with 21 samples.

Results

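The 3 tumours of the Ern1 knockout line KO3 were set against the 6 tumours of the knockout lines KO1 and KO2, with 3 tumours of each line. These 9 libraries were taken by their labels from the 21 of the series, and all genes were examined. Myc-CaP is a mouse prostate cancer cell line driven by a Myc transgene. The KO lines were made from it with Cas9 and 1 guide against Ern1, and the tumours were grafts in FVB mice. All 9 tumours therefore share the Myc transgene, the guide and the host strain, and the labels report no drug treatment. Tumours of unedited Myc-CaP cells (WT, 4 libraries) were used for description only. The same lines grown as cells (2 libraries of each KO line and 2 of WT) served for a second comparison that shares no library with the first. KO3 is a single line, so its knockout and any other feature of that line cannot be told apart. The labels do not say whether a line is 1 clone, how old the mice were, or whether the tumours of a line grew in separate mice, so each p-value covers only how these libraries vary, which may be technical. The labels of WT tumour replicates 3 and 4 carry the same number with the letters L and R.

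Total counts ran from 15994285 to 27497796 in tumours and from 18105538 to 25068254 in cells. The keratin Krt8, a marker of luminal epithelium, was at 81.6 to 318 CPM (counts per 1e6 counts, here without scaling factors) over the 13 tumours. The luminal prostate markers Pbsn, Krt18 and Epcam were at or near 0, with 1 count of Pbsn, 9 of Krt18 and 15 of Epcam over the 13 tumours. The leukocyte gene Ptprc was detected in each, at 7.73 to 49.0 CPM. In such bulk RNA, fewer cells of a type and less RNA per cell cannot be told apart.

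IRE1α, the product of Ern1, is a sensor in the membrane of the endoplasmic reticulum (ER). When unfolded proteins gather there, its RNase removes an intron from Xbp1 mRNA, and the spliced form encodes XBP1s, a transcription factor that raises genes for protein import, folding, degradation and export of the ER. A pair of other sensors act in parallel: ATF6 is cut in the Golgi to release a transcription factor that raises chaperones, and PERK, the product of Eif2ak3, slows translation and favours ATF4, which raises amino acid and stress genes and CHOP (Ddit3). CREB3-type factors such as CREB3L2 are also released by cutting in the Golgi and raise genes of secretory transport, and MIST1 (Bhlha15) is a factor of professional secretory cells.

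The guide is shown because all 3 lines share it. Its match lies in the coding part of exon 2 of Ern1 (chromosome 11, 106458942 to 106458961, GRCm38, in the sense of the gene, which is on the minus strand). The capitals mark the next 3 bases of the transcript, the PAM that Cas9 needs.
Ern1 guide: gcttgcatgctgttagcaagAGG

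Ern1 mRNA was lower in KO3 tumours than in the other KO tumours. It was at 66.4, 59.0 and 58.9 CPM in KO3 tumours, against 88.2, 79.0 and 77.6 CPM in KO1, 73.7, 88.6 and 76.1 CPM in KO2, and 64.7 to 84.4 CPM in WT tumours. All KO3 tumours lay below all KO1 and KO2 tumours, by a log2 difference of -0.40 ± 0.09 (SE), with an adjusted p of 0.0485. This call held in 1 of the 9 fits that left out a tumour in turn. A gene-level count cannot read a small insertion or deletion, so the edit itself was not checked by it. In cells the log2 difference of Ern1 was -0.07, with an adjusted p of 0.465.

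Across the table, 480 of 14223 tested genes (3.37%) differed between KO3 and the other KO tumours at an adjusted p under 0.05, 267 higher (1.88%) and 213 lower (1.5%). Of these, 57 (0.401%) were higher and 124 (0.872%) lower by 2-fold or more. By comparison, KO1 and KO2 tumours differed from each other in 633 genes (4.45%), 2.86% higher and 1.59% lower in KO1, so the number of genes alone does not set KO3 apart. KO3 tumours differed from KO1 tumours in 1049 genes (7.38%), 3.53% higher and 3.85% lower. They differed from KO2 tumours in 118 (0.830%), 0.562% higher and 0.267% lower. By these tests 66 genes (0.464%) were higher in KO3 than in each line, while 29 (0.204%) were lower than each. The count of 480 depended on single tumours: it was 135 without KO3 replicate 2, 99 without KO3 replicate 3, 245 and 273 without KO1 replicates 2 and 3, and 301 and 224 without KO2 replicates 1 and 3. With DESeq2 it was 1027.

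Genes of the secretory pathway were higher in KO3 tumours. Counts of called members in this and the later tumour lists stand against 1.88% higher and 1.5% lower over all genes tested. Of 40 tested XBP1s target genes 31 were higher and none lower, with a median log2 difference of 0.73, against a median of 0.01 over all genes tested. All 40 had a positive difference. In 34 of them the 3 KO3 tumours lay above all 6 others, against 4.68% of all genes, and 24 were higher than each line by its own test. The mean log2 CPM of the list was 7.06, 7.03 and 6.99 in KO3 tumours, 6.20, 6.21 and 6.27 in KO1, 6.28, 6.30 and 6.33 in KO2, and 7.09, 7.40, 7.24 and 7.23 in WT tumours. KO1 and KO2 did not overlap with KO3 or WT on this scale. Of 12 tested ATF6 targets 7 were higher and none lower, with a median of 0.58. Creld2, Pdia6, Hyou1, Ero1lb, Manf and Sdf2l1 rose and are on both lists, so the counts are not separate.

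Skeletal muscle transcripts were lower in KO3 tumours than in the other KO tumours. The mean log2 CPM of the muscle markers was -0.97, -1.95 and -1.86 in KO3 tumours, 3.21, 4.32 and 3.51 in KO1, -0.18, 4.61 and 1.80 in KO2, and 5.70, -1.78, 1.39 and -1.87 in WT tumours. All KO3 tumours lay below all other KO tumours, so muscle level and line cannot be told apart here. Within KO2 the muscle level ran from -0.18 to 4.61 and the XBP1s targets from 6.28 to 6.33. WT replicate 1, with the most muscle RNA, had XBP1s targets at 7.09. With the muscle level as a covariate the median of the XBP1s targets was 0.78 and that of the ATF6 targets 0.69, against 0.73 and 0.58 without it. This fit extends beyond the muscle levels that KO3 shares with the other KO lines, so it cannot separate muscle level from line. The median SE of the XBP1s targets was then 0.22, against 0.10 without the covariate, and no member of either list passed; of all genes only Creb3l2 did, at an adjusted p of 0.0383. With muscle markers left out of the table, 31 XBP1s targets were higher, as before.

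**Figure D1:**
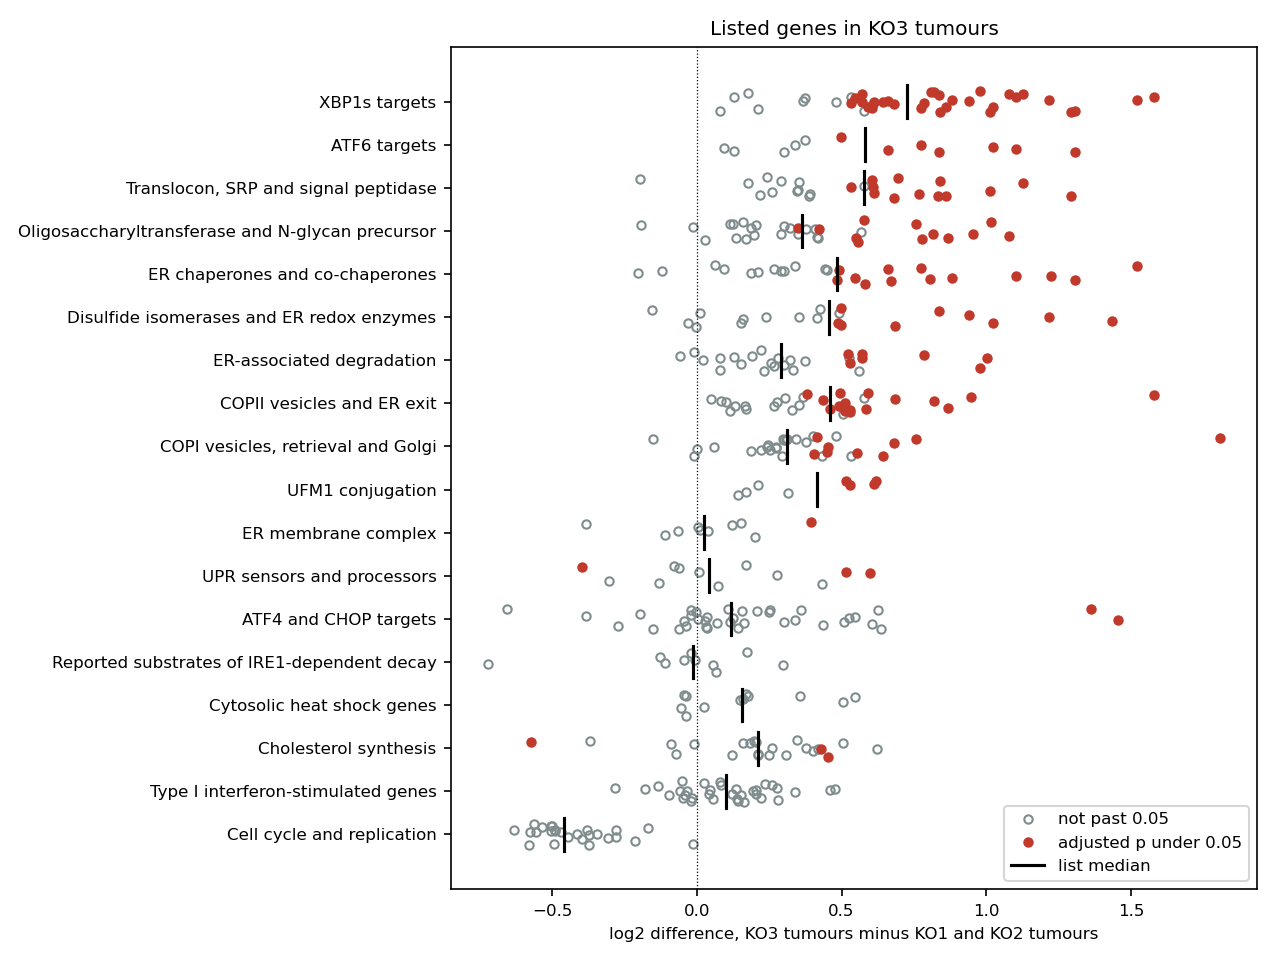
Each point is a tested gene, placed by its log2 difference between KO3 tumours and KO1 and KO2 tumours (x axis), in rows of gene lists; filled points passed an adjusted p of 0.05, open points did not, and bars mark list medians. The XBP1s targets have a median of 0.73 with 31 of 40 filled points, while the ATF4 and CHOP targets have a median of 0.12 with 2 of 38.

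Creb3l2, a membrane-bound transcription factor of the CREB3 family (chromosome 6, 37327255 to 37442146, minus strand, GRCm38), had the smallest p of all genes. Its level was 67.3, 64.5 and 63.4 CPM in KO3 tumours, 20.9, 20.5 and 20.4 CPM in KO1, 17.98, 16.2 and 17.0 CPM in KO2, and 53.4 to 65.1 CPM in WT tumours. KO3 tumours thus lay in or just above the WT range and 3.45-fold above the other KO tumours, with a log2 difference of 1.79 ± 0.07 (SE) and an adjusted p of 2.65e-06. Bhlha15 was at 13.4, 11.97 and 15.5 CPM in KO3 tumours, 2.34, 1.71 and 2.71 CPM in KO1, 1.49, 3.17 and 1.56 CPM in KO2, and 10.4 to 24.4 CPM in WT tumours, a log2 difference of 2.65 ± 0.23 (SE) with an adjusted p of 0.000466. Creb3, the founding member of the family, was higher by 0.63, with 44.7, 41.5 and 45.2 CPM in KO3 tumours, against 22.7 to 32.8 CPM in the other KO tumours. Of 7 tested genes of this list 3 were higher. Creb3l1, Creb3l3, Creb3l4 and Klf4 did not pass, with differences between -0.36 and 0.38.

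**Figure D2:**
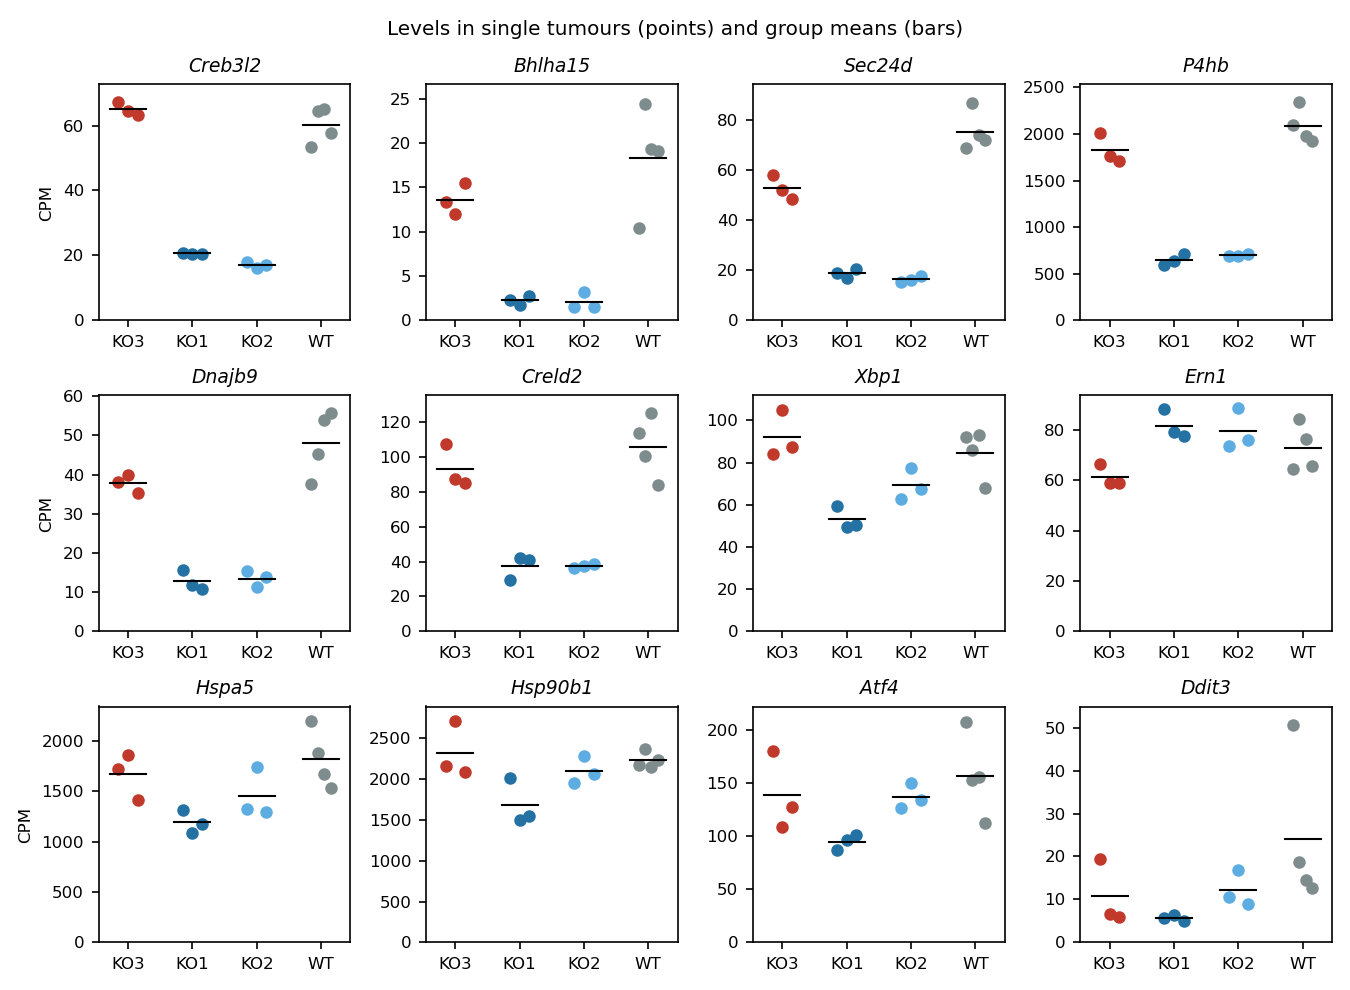
Points are single tumours in KO3, KO1, KO2 and WT (x axis) and bars are group means, in CPM with TMM scaling on axes that start at 0. Creb3l2, Bhlha15, Sec24d, P4hb, Dnajb9 and Creld2 are lower in KO1 and KO2 than in KO3 and WT; for Hspa5, Hsp90b1 and Atf4 the KO3 tumours lie above KO1 tumours and overlap with KO2 tumours, and for Ddit3 they overlap with both.

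Secretory proteins first cross into the ER. Of 25 tested genes of the translocon, the signal recognition particle and signal peptidase, 13 were higher and none lower, with a median of 0.58. Spcs2, a subunit of signal peptidase, was at 129, 134 and 131 CPM in KO3 tumours, 63.4, 65.0 and 65.8 CPM in KO1, and 63.2, 64.8 and 67.4 CPM in KO2. KO3 tumours were 2.02-fold above the others without overlap, with a log2 difference of 1.01 ± 0.07 (SE) and an adjusted p of 0.000143. Sec61a1, the channel itself, rose by 0.84, its small partner Sec61b by 1.29, and Ssr2 of the translocon-associated complex by 0.83. Srpr, the receptor of the signal recognition particle, rose by 0.68, while the particle's own subunits Srp72, Srp68, Srp9, Srp14 and Srp19 did not pass, with values of 0.18 to 0.39.

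As they enter, many are N-glycosylated. Of 32 tested genes of the oligosaccharyltransferase and its lipid-linked glycan precursor 12 were higher and none lower, with a median of 0.36. Ostc, which ties the transferase to the translocon, was at 138, 141 and 147 CPM in KO3 tumours, 73.7, 63.3 and 61.0 CPM in KO1, 65.4, 65.1 and 74.0 CPM in KO2, and 163 to 203 CPM in WT tumours. Its log2 difference was 1.08 ± 0.09 (SE), with an adjusted p of 0.000278, and KO3 tumours stayed below all WT tumours. The catalytic subunit Stt3a rose by 0.87 and the subunits Ddost, Rpn1 and Rpn2 by 0.76, 0.78 and 0.81. Of the enzymes that build the precursor Alg2 rose by 0.95, whereas Alg1, Alg3, Alg5, Alg6, Alg8, Alg9, Alg12, Alg14 and Dpagt1 did not pass, with values of -0.19 to 0.42.

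Of 25 tested ER chaperones and co-chaperones, which fold the imported chains, 13 were higher and none lower, with a median of 0.49. Dnajb9, a co-chaperone of the chaperone BiP that restrains IRE1α, was at 38, 40.0 and 35.3 CPM in KO3 tumours, 15.7, 11.8 and 10.7 CPM in KO1, 15.3, 11.2 and 13.9 CPM in KO2, and 37.5 to 55.6 CPM in WT tumours (log2 difference 1.52 ± 0.13 SE, adjusted p 0.000420). Creld2, an ER protein induced by stress, was at 107, 87.5 and 84.7 CPM in KO3 tumours and 29.6 to 41.9 CPM in the other KO tumours, a difference of 1.31. Fkbp11, Sdf2l1, Dnajc3 and Hyou1 rose by 1.22, 1.10, 0.88 and 0.77.

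Hspa5, which encodes BiP itself, did not pass. It was at 1721, 1863 and 1417 CPM in KO3 tumours, 1318, 1081 and 1172 CPM in KO1, 1320, 1744 and 1289 CPM in KO2, and 1535 to 2195 CPM in WT tumours, a log2 difference of 0.34 ± 0.14 (SE) with an adjusted p of 0.223. Hsp90b1 (GRP94), Canx and Calr, the other bulk chaperones, had differences of 0.30, 0.44 and 0.09 and adjusted p of 0.281, 0.130 and 0.727. For Hspa5, Hsp90b1 and Calr at least 1 KO3 tumour lay within the range of the other KO tumours, while for Canx all KO3 tumours, at 1553 to 2044 CPM, lay above the 1029 to 1466 CPM of the others. Herpud1 and Sel1l, of ER-associated degradation, and the disulfide reductase Dnajc10 were further targets that did not pass, at 0.37, 0.13 and 0.21.

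Of 20 tested disulfide isomerases and ER redox enzymes 9 were higher and none lower, with a median of 0.46. P4hb, the main disulfide isomerase, was at 2014, 1761 and 1710 CPM in KO3 tumours, 596, 634 and 712 CPM in KO1, 696, 690 and 717 CPM in KO2, and 1924 to 2346 CPM in WT tumours. The log2 difference was 1.43 ± 0.10 (SE), with an adjusted p of 0.000126. Pdia5 and Txndc11 rose by 1.22 and 0.94, Pdia6 by 0.84, Pdia4 by 0.50 and the oxidase Ero1lb by 1.02. Ero1l, the other ER oxidase, Pdia3, which serves glycoproteins, and the TMX membrane enzymes Tmx1, Tmx2, Tmx3 and Tmx4 did not pass.

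For ER-associated degradation, the disposal route of misfolded proteins, 7 of 26 tested genes were higher and none lower, with a median of 0.29. Vimp (SELENOS), which recruits the extraction machinery, was at 127, 129 and 147 CPM in KO3 tumours, against 59.1 to 64.9 CPM in KO1 and 69.1 to 75.6 CPM in KO2, a log2 difference of 1.003. Edem2, Edem1 and Derl1, which select or pass on the misfolded glycoproteins, rose by 0.98, 0.78 and 0.57, and the ligase Syvn1 by 0.57. Vcp, Nploc4 and Ube2j2, cytosolic and shared parts of the route, were between -0.06 and 0.08 and did not pass.

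Folded cargo leaves the ER in COPII vesicles. Of 31 tested genes of this step 16 were higher and none lower, with a median of 0.46, and all 31 differences were positive. Sec24d, a cargo-binding coat subunit (chromosome 3, 123267455 to 123365641, plus strand, GRCm38), was at 58.2, 52.1 and 48.7 CPM in KO3 tumours, 19.1, 17.1 and 20.4 CPM in KO1, 15.5, 16.2 and 17.9 CPM in KO2, and 68.8 to 87.1 CPM in WT tumours. KO3 tumours lay between the other KO tumours and WT without overlap, with a log2 difference of 1.58 ± 0.09 (SE) and an adjusted p of 4.21e-05. Of its relatives Sec24c rose by 0.51, while Sec24a and Sec24b were at 0.10 and 0.08 and did not pass. The cargo receptors Lman1 and Surf4 rose by 0.95 and 0.82, and Mia3, which exports large cargo such as collagen, by 0.68.

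Of 31 tested genes of COPI vesicles, retrieval and the Golgi, 9 were higher and none lower, with a median of 0.31. The leading member was Nucb2, a calcium-binding protein of the Golgi, at 21.8, 29.5 and 24.6 CPM in KO3 tumours, 8.76, 8.32 and 6.44 CPM in KO1, and 5.76, 7.40 and 6.77 CPM in KO2, a log2 difference of 1.81 ± 0.14 (SE). KO3 tumours were above the WT tumours too, which had 16.7 to 21.0 CPM. The tethers Golgb1 and Uso1 and the stacking protein Gorasp2 rose by 0.64, 0.68 and 0.55. Most subunits of the COPI coat (Copa, Copb1, Copb2, Copg1, Copg2, Copz1, Copz2 and Arcn1) did not pass, with values of -0.15 to 0.43, whereas Cope rose by 0.76.

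Over these 7 lists together, 79 of 190 tested genes were higher, against 267 of 14223 over all genes, and none lower, with a median of 0.40. The secretory genes make up 79 of the 267 genes that were higher. Outside the XBP1s and ATF6 lists, 48 of 147 secretory genes were higher, with a median of 0.34. Over the 9 fits that left out a tumour in turn, 38 of the 79 calls were kept in every fit, against 66 of the 267 over all genes. For the XBP1s targets 22 of 31 were kept, and the count of those called was lowest, at 23, without KO3 replicate 3. The secretory count was 45 without KO3 replicate 2 and 41 without KO3 replicate 3, and the 48 became 21 and 17, or 29 and 28 without KO2 replicates 1 and 3. Set beside WT as a description, the 190 tested genes had a median level of 94.2% of the WT mean in KO3 tumours. In KO1 and KO2 tumours it was 71.4%. All 40 tested XBP1s targets were at 84.4% and 52.5%. The 79 called genes were at 92.5% and 55.1%, and the 31 called XBP1s targets at 84.4% and 47.6%. Calling selects genes for a gap between KO3 and the other KO lines, so these last gaps are widened by the selection.

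A family related to ER function was added after its values were seen. Of 8 tested genes of UFM1 conjugation, which modifies ribosomes at the ER, 4 were higher and none lower, with a median of 0.42. Among them Cdk5rap3 was higher by 0.62, Ufl1 by 0.53 and Ufm1 by 0.52. Of the 4 calls 1 was kept in every fit that left out a tumour in turn, and against KO2 alone none of the 8 passed. Of the 10 genes of the ER membrane complex, which inserts membrane proteins and was added in the same way, Emc7 was higher by 0.40 and the other 9 did not pass, with a median of 0.02 over the 10.

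Of 12 sensors and processing enzymes of the ER response Xbp1 and Atf6b were higher and Ern1 lower, against 3.37% of all genes called in either direction, with a median of 0.04. The call of Atf6b held in 2 of the 9 fits that left out a tumour in turn, and that of Xbp1 in 6. Xbp1 was at 84.2, 105 and 87.5 CPM in KO3 tumours, 59.4, 49.7 and 50.4 CPM in KO1, 62.9, 77.7 and 67.3 CPM in KO2, and 67.9 to 93.0 CPM in WT tumours, a log2 difference of 0.60 ± 0.11 (SE) with an adjusted p of 0.0182. Against KO2 alone it did not pass, with 0.42 and an adjusted p of 0.180. These are counts over the gene and do not separate spliced from unspliced Xbp1. Atf6 did not pass, at 0.43 with an adjusted p of 0.0607, nor did Eif2ak3 at -0.13 with 0.675.

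Of 38 targets of ATF4 and CHOP 2 were higher, against 1.88% of all genes tested, and none lower, with a median of 0.12. Without KO3 replicate 1 that median was -0.05. Atf4 was at 180, 109 and 128 CPM in KO3 tumours, 86.8, 96.1 and 101 CPM in KO1, and 126, 150 and 134 CPM in KO2. Ddit3 was at 19.5, 6.68 and 5.90 CPM in KO3 tumours, 5.64, 6.28 and 5.03 CPM in KO1, and 10.7, 16.9 and 8.90 CPM in KO2. In both genes KO3 replicate 1 was the highest of the 3. KO3 tumours lay above KO1 and overlapped with KO2 for Atf4, they overlapped with both lines for Ddit3, and KO1 lay below KO2 in both genes. Trib3 and Asns, an inhibitory kinase-like protein and asparagine synthetase, were at 0.64 and 0.03 with adjusted p of 0.577 and 0.895.

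The 2 called members were Nupr1, a small stress-induced chromatin protein, and Slc7a11, the cystine transporter. Nupr1 was at 76.3, 78.9 and 70.0 CPM in KO3 tumours, 26.6, 26.4 and 21.9 CPM in KO1, and 35.6, 39.8 and 26.3 CPM in KO2, a log2 difference of 1.36 ± 0.13 (SE) with an adjusted p of 0.000634. Slc7a11 overlapped between groups, with 145, 339 and 236 CPM in KO3 tumours, 56.4, 26.9 and 35.9 CPM in KO1, and 151, 296 and 133 CPM in KO2: only KO1 stood apart from KO3 by its own test (2.59, adjusted p 0.00665, against 0.32 and 0.768 for KO2). None of 10 reported substrates of IRE1-dependent decay passed, with a median of -0.01; Bloc1s1, the best known of them, was at 0.00 with an adjusted p of 0.995. None of 12 cytosolic heat shock genes passed, with a median of 0.16.

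Promoters were read for the motifs of these factors in the RefSeq table of GRCm38.p6 (250 bases before to 50 after each gene's start). The motifs were ERSE (CCAAT, any 9 bases, CCACG), ERSE-II (ATTGG, any 1 base, CCACG), the UPRE core TGACGTGG and the CRE core TGACGTCA, on either strand. A promoter was found for 222 of the 267 genes higher in KO3 tumours. Of these 2.25% (5 genes) held an ERSE, 0.450% (1 gene) an ERSE-II, 3.15% (7 genes) a UPRE core and 2.25% (5 genes) a CRE core. Of the 10687 tested genes with a promoter in the table, 0.178% held an ERSE, 0.0749% an ERSE-II, 1% a UPRE core and 3.56% a CRE core. Of all 27025 genes in the table, 0.137%, 0.0444%, 0.714% and 2.03% did. The CRE core share of the genes higher in KO3 tumours thus lay between these 2 shares. No difference in share was tested. Within the 7 secretory lists 19.0% of the called genes and 17.9% of those not called held any of these motifs.

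The sites below are shown because they begin before the RefSeq start of genes that rose and genes that did not. Distances count from the RefSeq start, which can differ from the GENCODE M21 start behind the gene positions given above. By the GENCODE start the core of Sec24d lies inside the gene. Capitals mark the motif, flanks are in lower case, and each is read 5′ to 3′ along the gene.
Sec24d, UPRE core, 26 bases before the start, chr3:123267464-123267483: ggcgccTGACGTGGcactag
Txndc11, UPRE core, 102 bases before, chr16:11134621-11134640: tgtggcTGACGTGGagagtc
Pdia6, ERSE, 98 bases before, chr12:17266485-17266515: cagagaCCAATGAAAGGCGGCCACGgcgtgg
Dnajc3, ERSE, 105 bases before, chr14:118937821-118937851: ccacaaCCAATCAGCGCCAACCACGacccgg
Creld2, ERSE on the opposite strand, 126 bases before, chr15:88819514-88819544: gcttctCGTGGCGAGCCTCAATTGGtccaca
Alg12, the same ERSE read from the other gene, 220 bases before, chr15:88819514-88819544: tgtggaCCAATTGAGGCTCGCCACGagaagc
Hspa5, ERSE, 65 bases before, chr2:34772019-34772049: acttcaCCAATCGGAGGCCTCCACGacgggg
Copb2, UPRE core on the opposite strand, 7 bases before, chr9:98563718-98563737: gaagttCCACGTCAgtgggt

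The first 5 of these genes rose, and Alg12, Hspa5 and Copb2 did not pass. Creld2 and Alg12 stand head to head over a single ERSE: Creld2 rose by 1.31, and Alg12, a mannosyltransferase of the glycan precursor, was at 0.42 with an adjusted p of 0.184. Of the listed genes with an ERSE 5 were higher and 5 were not called, and of those with a UPRE core 5 were higher and 8 not. The whole promoter of Sec24d, the most strongly raised coat subunit, shows where its UPRE core lies between the other bases. It runs from 123267246 to 123267545 on chromosome 3, plus strand:
Sec24d promoter: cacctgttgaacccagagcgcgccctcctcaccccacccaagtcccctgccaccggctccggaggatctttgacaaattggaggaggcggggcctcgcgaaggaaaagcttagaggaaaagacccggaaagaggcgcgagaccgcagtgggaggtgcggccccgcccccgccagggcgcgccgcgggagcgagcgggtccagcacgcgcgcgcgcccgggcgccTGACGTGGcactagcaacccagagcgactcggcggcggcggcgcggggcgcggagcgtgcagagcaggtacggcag

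The same contrast in cells gave smaller median differences for the XBP1s targets and the secretory lists. Of 12082 genes 3564 (29.5%) differed between KO3 cells and KO1 and KO2 cells, 1969 higher (16.3%) and 1595 lower (13.2%), and without KO3 cell replicate 1 or 2 the total was 2064 or 1787. Of the 40 XBP1s targets 10 were higher and 4 lower, with a median of 0.10. Over the 7 secretory lists together, 47 of 189 genes tested in cells were higher and 15 lower, with a median of 0.07. By list, 11 of 25 ER chaperones were higher and none lower. Of 20 disulfide isomerases and redox enzymes 10 were higher and 2 lower, and of 32 oligosaccharyltransferase and precursor genes 2 were higher and 5 lower. Creb3l2 was at 62.2 and 61.5 CPM in KO3 cells, 54.1 and 56.1 CPM in KO1, 66.6 and 69.4 CPM in KO2, and 125 and 140 CPM in WT cells, a difference of 0.01. Sec24d was at 37.4 and 31.7 CPM in KO3 cells, 30.1 and 29.0 CPM in KO1, 29.1 and 30.7 CPM in KO2, and 156 and 162 CPM in WT cells, a difference of 0.22 with an adjusted p of 0.0837 (-0.31 with the length-scaled table, not past the threshold either). Bhlha15 was below 1 CPM in every KO cell library and at 17.997 and 14.5 CPM in WT cells. In culture, KO3 levels of these genes were near those of the other KO lines and far below WT.

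The difference between the tumour and the cell contrast was tested in 1 fit of the 15 KO libraries. It passed for 938 of 14922 genes (6.29%), 414 higher in the tumour contrast (2.77%) and 524 lower (3.51%); without KO3 cell replicate 1 or 2 it was 325 or 302, without KO1 cell replicate 1 it was 622, and without KO2 cell replicate 2 it was 563. Of the XBP1s targets 25 of 40 were higher and none lower, with a median of 0.66, and of the 267 genes higher in KO3 tumours 115 were. The 267 were selected on the same tumour libraries, which favours a positive tumour minus cell difference, so the 115 are description only. The values were 1.76 for Creb3l2 (adjusted p 7.99e-07), 1.35 for Sec24d (0.000192), 1.71 for Dnajb9 (0.000506), 1.14 for P4hb (0.000281) and 0.96 for Spcs2 (9.36e-05). Xbp1 was higher by 0.60 in both settings, at 99.8 and 91.3 CPM in KO3 cells, against 54.6 to 76.0 CPM in the other KO cells; its tumour minus cell difference was -0.02 and did not pass. Of the 267 genes higher in tumours 250 were tested in cells. There 84 were higher too and 28 lower, against 16.3% higher and 13.2% lower of all genes tested in cells. The 84 make up 31.5% of the 267 tumour genes and 4.27% of the 1969 cell genes.

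ATF4 and CHOP targets were lower in KO3 cells. Of 35 tested in cells 34 were lower and none higher, with a median of -0.86. Ddit3 was at 5.00 and 4.26 CPM in KO3 cells, 23.5 and 22.7 CPM in KO1, 20.4 and 20.5 CPM in KO2, and 6.47 and 5.25 CPM in WT cells. Trib3, Atf4 and Asns differed by -2.15, -1.17 and -0.96. For Ddit3 KO3 cells lay below WT cells and KO1 and KO2 cells above them, whereas in tumours KO3 overlapped with each of the other lines. The tumour minus cell difference was called for 25 of 38 members, all positive, with Nupr1 at 3.15 (adjusted p 1.99e-06), Sesn2 at 1.80 and Ddit3 at 2.59.

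**Figure D3:**
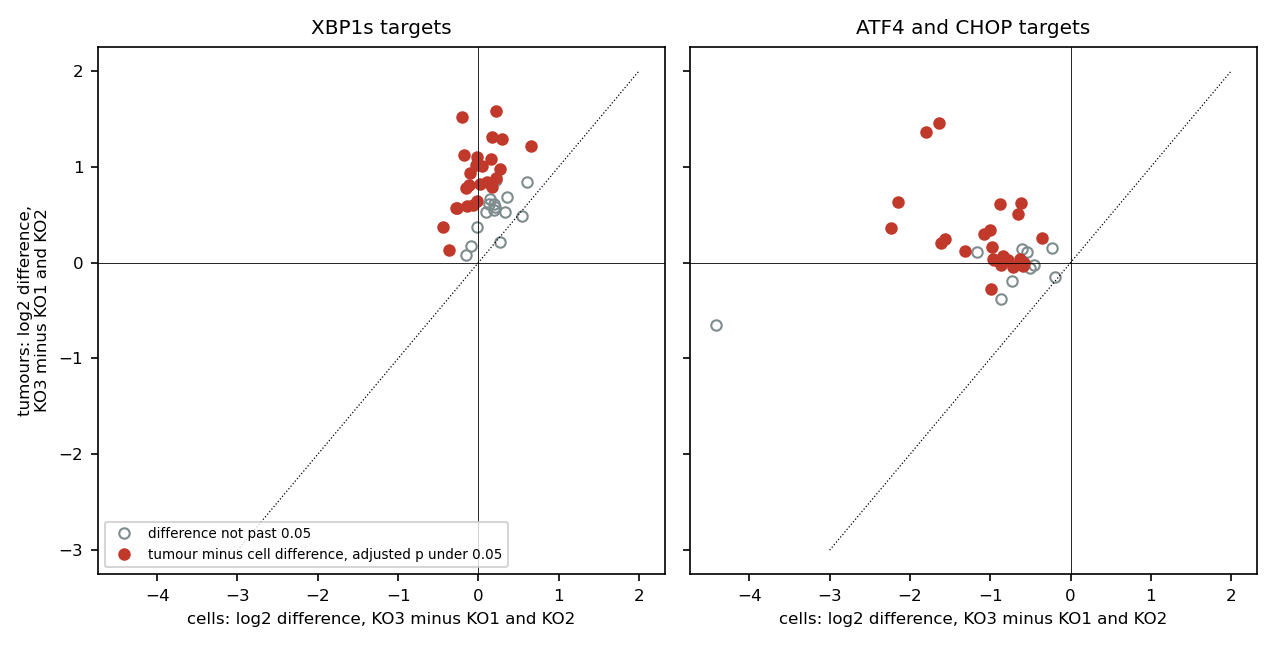
Each point is a gene, with its log2 difference between KO3 and the KO1 and KO2 lines in cells (x axis) and in tumours (y axis); the dotted line marks equal differences and filled points passed the test of tumour minus cell difference. XBP1s targets have medians of 0.10 in cells and 0.73 in tumours, and ATF4 and CHOP targets -0.86 in cells and 0.12 in tumours.

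Genes outside the lists were also among the largest rises. Cftr, a chloride channel of secretory epithelia, was at 8.06, 10.4 and 10.1 CPM in KO3 tumours, 1.28, 0.881 and 0.654 CPM in KO1, 1.74, 3.51 and 1.14 CPM in KO2, and 9.31 to 16.2 CPM in WT tumours, a log2 difference of 2.75 ± 0.31 (SE). Rhox5, a homeobox gene of the reproductive tract, was at 25.3, 36.0 and 49.3 CPM in KO3 tumours, 4.41 to 7.99 CPM in KO1, 8.501 to 14.999 CPM in KO2 and 4.06 to 5.34 CPM in WT tumours, so that here KO3 stood above WT as well. It was also higher in KO3 cells, by 1.505. Hid1, a protein of dense core vesicle formation at the Golgi, rose by 1.45 in tumours and had a log2 difference of -0.35 in cells, where it was also called. Prss53, a serine protease, rose by 1.83, but against KO2 alone it did not pass, at 1.24 with an adjusted p of 0.104.

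All 3 fibrinogen chains, secreted clotting proteins that were added as a set after their values were seen, were higher. Fgb was at 1739, 4277 and 4359 CPM in KO3 tumours, 927 to 1207 CPM in KO1, 1314 to 1320 CPM in KO2 and 2148 to 4610 CPM in WT tumours, a log2 difference of 1.52. For Fgb KO3 tumours lay above all other KO tumours, and its KO3 replicate 1 was the lowest of the 3. Fgg and Fga rose by 1.08 and 0.80, but KO2 replicate 1 lay within the KO3 range of both. Against KO2 alone none of the 3 passed, with adjusted p of 0.0619, 0.188 and 0.384 for Fgb, Fgg and Fga. Cell libraries held almost none of these transcripts, with at most 3.09 CPM of Fgb.

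A further set was chosen after the values were seen, as the genes with the smallest p that are on no list. Tmem39a, an ER membrane protein, and Ppapdc1b, a lipid phosphatase, rose by 0.84 and 1.02. Cldn2, a tight junction protein, Kcne3, a potassium channel subunit, and Mfge8, a secreted glycoprotein that binds dying cells, rose by 1.08, 1.27 and 1.20. Fos and Btg2, both early response genes, rose by 1.32 and 0.90, and Fos, Kcne3, Mfge8 and Btg2 were also higher in KO3 cells, by 1.57, 0.98, 0.54 and 0.74. Fos and Btg2 differed between KO1 and KO2 tumours too, by -1.04 each.

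Among genes lower in KO3 tumours and past the level and overlap filters, the 10 with the largest differences were genes of skeletal muscle: Myh4, Myh1, Ttn, Pgam2, Myl1, Ckm, Tnnc2, Casq1, Xirp2 and Tnnt3. Of 25 tested muscle markers 18 were lower and none higher, and 20 lay below all other KO tumours, against 3.63% of all genes. The count was 5, 1 and 1 without KO3 replicates 1, 2 and 3, and 5 and 7 without KO1 replicates 2 and 3. Myh1, a fast myosin heavy chain, was at 0.0415, 0.0467 and 0 CPM in KO3 tumours, 16.3, 35.4 and 48.1 CPM in KO1, and 2.70, 25.9 and 6.58 CPM in KO2. WT tumours held 18.2, 0.0785, 4.74 and 0 CPM, so it was near 0 in 2 of the 4 WT tumours too. KO3 counts of Myh1, Pgam2 and Casq1 were 2, 1 and 2 over 3 libraries, and no fold is given for them. Against KO2 alone 1 muscle marker passed, and KO2 replicate 1 was itself low, with 0.427 CPM of Myh4 against 154 and 8.23 CPM in the other KO2 tumours.

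**Figure D4:**
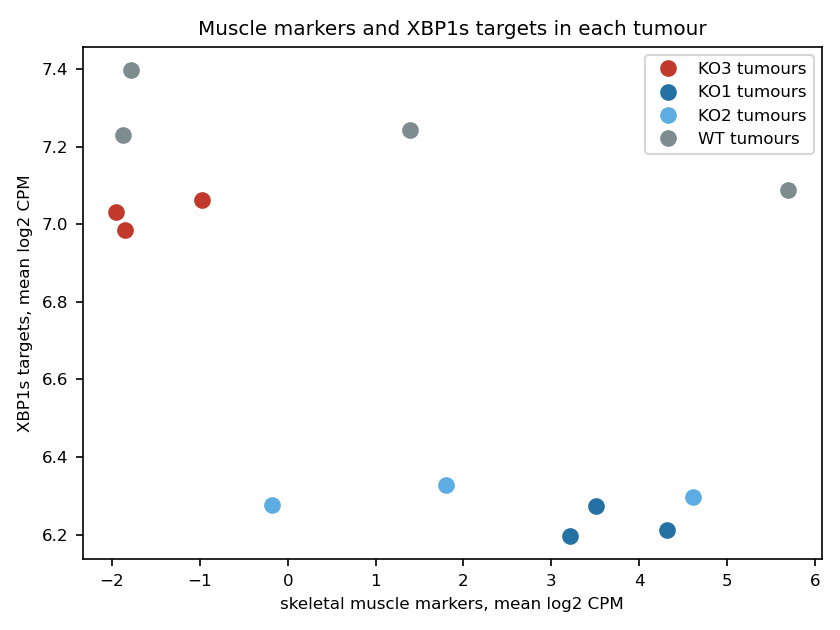
Each point is a tumour, placed by the mean log2 CPM of skeletal muscle markers (x axis) and of XBP1s targets (y axis). KO1 and KO2 tumours lie between 6.20 and 6.33 on the y axis over a wide range of muscle levels, and KO3 and WT tumours lie at 6.99 or above.

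Other genes were named for a small p among those lower and on no list, again chosen after seeing their values. Calca, which encodes calcitonin and its related peptide, was at 1.04, 0.514 and 0.189 CPM in KO3 tumours, 5.91, 5.18 and 4.52 CPM in KO1, and 13.8, 10.4 and 14.8 CPM in KO2, a log2 difference of -3.79 ± 0.37 (SE) with an adjusted p of 0.000773. It was also lower in KO3 cells, by -3.38. Egf, the epidermal growth factor, was at 15.3, 12.6 and 12.2 CPM in KO3 tumours, against 37.3 to 46.5 CPM in KO1, 23.8 to 38.2 CPM in KO2 and 32.2 to 40.2 CPM in WT tumours. Mapt, Lsp1, Nacc2, Slc13a4, Nhsl2, Mixl1 and Angpt4 differed by -0.78, -0.93, -0.93, -1.34, -1.91, -2.75 and -2.20.

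Other host markers, except S100a9, did not pass in this contrast, which averages KO1 and KO2. None of 17 macrophage, 6 leukocyte, 10 T and NK cell, 15 endothelial or 17 fibroblast and smooth muscle markers was called; summed over the list, leukocyte markers were at 131, 155 and 189 CPM in KO3 tumours, 181 to 254 CPM in KO1, 115 to 150 CPM in KO2 and 94.4 to 293 CPM in WT tumours. By single lines, 9 of the 17 fibroblast and smooth muscle markers and 4 of the 17 macrophage markers were lower in KO3 than in KO1. Their medians were -0.80 and -0.48 against KO1, and 0.42 and 0.18 against KO2, where none passed. Between the reference lines 13 and 7 of them were higher in KO1 than in KO2. Adipocyte markers had a median of 3.42 with none of 10 called, and their summed level ran from 109 to 773 CPM in KO3 tumours, 59.7 to 462 CPM in KO1, 95.8 to 132 CPM in KO2 and 179 to 1009 CPM in WT tumours. Of the neutrophil markers S100a9 was called, at 1.25, 1.22 and 0.708 CPM in KO3 tumours and at most 0.427 CPM in the other KO tumours.

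Immune and growth programmes gave no or few calls. None of 34 type I interferon-stimulated genes, 21 interferon-gamma-induced genes, 16 genes of MHC class I and 7 of MHC class II presentation was called, with medians of 0.10, 0.18, 0.17 and 0.21. None of 26 cell cycle genes was called either, although all 26 were negative, with a median of -0.46; in cells 20 of them were lower in KO3, with a median of -0.45. None of 25 hypoxia and glycolysis genes was called, at a median of 0.36. Of 23 cholesterol synthesis genes Msmo1 and Sqle were higher and Nsdhl lower. These calls held in 3, 2 and 4 of the 9 fits that left out a tumour in turn. Against KO1 alone 10 of the 23 were higher and 1 lower, and against KO2 alone none passed. KO1 was below KO2 in 8 of them. Msmo1 was at 39.0, 44.1 and 42.4 CPM in KO3 tumours, 25.3, 21.1 and 21.1 CPM in KO1, and 42.6, 44.7 and 40.2 CPM in KO2, so KO2 was at the KO3 level. Myc, the driver of the line, did not pass, at 382, 225 and 269 CPM in KO3 tumours and 199 to 347 CPM in the other KO tumours, with an adjusted p of 0.716.

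Smaller lists added single calls. P3h1, a collagen prolyl hydroxylase, was higher by 0.60 as 1 of 13 collagen-modifying enzymes, and Gpam was higher by 0.74 as 1 of 16 fatty acid synthesis genes. Of 23 NRF2 and glutathione genes Slc7a11 was higher, and Gsta4 and Gclc were lower by -0.45 and -0.43. Of 22 basement membrane and integrin genes Col17a1 was lower, below 1 CPM in every KO tumour. Few of these calls held when a tumour was left out: of the 9 fits, Gpam and Slc7a11 passed in 3, Col17a1 in 2, and P3h1, Gsta4 and Gclc in 1 each. None of 18 complement and acute phase genes, 12 luminal epithelial markers or 5 keratinocyte markers was called.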

How the data were processed

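RNA of tumours and cultured cells was sequenced as paired 50-base reads after selection of polyadenylated RNA, with a stranded kit, per the labels' protocols. Trim Galore 0.6.7, STAR and Salmon 1.5.2 with the mouse build GRCm38 are named in the submitters' processing notes. The authors deposited a table of expected counts per gene (estimated counts that need not be whole) and a second table of expected counts scaled by transcript length. No source used here gives the annotation or the strand setting of the counting, so that genes that overlap another gene (among those named Creb3, Pdia6, Txndc11, Gorasp2, Spcs2, Prss53, Tnnc2 and Tnnt3) could share its reads.

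The counts were rounded. Genes were filtered with filterByExpr by line and scaled by TMM, and edgeR 4.0.16 (R 4.3.3) fitted its quasi-likelihood model with each line as a group; KO3 was set against the mean of KO1 and KO2, and all adjusted p are Benjamini-Hochberg values over all genes tested, called under 0.05. The same was done in cells, and the tumour minus cell difference was fitted over both. Levels are CPM with TMM scaling over the 13 tumours or the 8 cell libraries, and mean log2 CPM uses a prior count of 2. Total counts per library bound the precision, and floors cover counting error only. Each SE comes from the quasi-likelihood F test and includes variation between libraries of a line. The calling was tested on simulated data. DESeq2 1.42.0 and other scalings, filters and covariates were alternatives.

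Genes named in the text were the 10 largest rises and 10 largest falls with 2 or more as their mean log2 CPM and no overlap between groups, up to 3 called members of each list by smallest p, a fixed set of ER stress genes, and the 5 genes of smallest p in each direction of the tumour minus cell difference; other members are named as examples of their lists, and some genes are not reported here. The members and the lists were chosen with earlier results of these data known. The lists of UFM1 conjugation, the ER membrane complex and the fibrinogen chains, the genes on no list with the smallest p and the fit without muscle markers were chosen after seeing the values. The table held 45706 genes, of which 45143 had their ID in GENCODE M21, the source of the positions, and all 713 list members were matched, 5 of them by an older symbol. Promoters came from RefSeq's table of GRCm38.p6, which holds no entry for some genes.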

Additional observations from a re-analysis of the deposited data

Results flagged for a closer look

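Tested over all 15 KO libraries, the difference between KO3 and the other KO lines was not the same in tumours as in cells for many of the named genes. All values here are the tumour log2 difference minus the cell log2 difference, each past an adjusted p of 0.05 by edgeR. Many of these genes were named for their tumour difference in the same libraries, which favours a value of that sign. Among transcription factors and sensors it was 1.76 for Creb3l2, 2.21 for Bhlha15, 1.06 for Atf6 and 0.63 for Atf6b. For import and glycosylation it was 0.96 for Spcs2, 0.72 for Sec61a1, 0.83 for Ssr2, 0.91 for Ostc, 0.62 for Stt3a and 0.61 for Ddost. For folding it was 1.71 for Dnajb9, 1.13 for Creld2, 0.93 for Hyou1, 1.14 for P4hb, 0.56 for Pdia5, 1.03 for Txndc11 and 1.41 for P3h1. For degradation it was 0.60 for Edem1, 0.70 for Edem2 and 0.61 for Vimp. For export and the Golgi it was 1.35 for Sec24d, 1.01 for Lman1, 0.90 for Mia3, 1.57 for Nucb2, 0.66 for Golgb1 and 0.63 for Gorasp2. For UFM1 conjugation and the ER membrane complex it was 0.57 for Cdk5rap3, 0.67 for Ufl1 and 0.48 for Emc7.

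Stress genes of the ATF4 and CHOP arm also had a positive difference, 3.15 for Nupr1, 3.07 for Slc7a11, 2.80 for Trib3, 2.59 for Ddit3, 1.80 for Sesn2, 1.43 for Atf4 and 0.99 for Asns; for all of these the cell contrast was negative. Positive values were also found for Hid1 at 1.79, Camk1d, a calcium-dependent kinase, at 1.44, E2f2, a cell cycle transcription factor, at 1.38, Gpam at 1.01, Ppapdc1b at 0.94, Tmem39a at 0.91 and Msmo1 at 0.55. Negative values were found for Gm2a, a lysosomal lipid-binding protein, at -2.27, the membrane protein Tmc4 at -3.13, the signalling phospholipase Plcg2 at -3.55, Gsta4 at -1.20, Egf at -1.09, Nsdhl at -0.71 and Nacc2 at -0.67. The values of -11.45 for Igsf3, -9.24 for Aim2, -9.33 for Tnnt3 and -6.40 for Col17a1 rest on groups at or near 0 counts, so that they depend on the prior count.

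Single WT tumours stood apart from the other 3, which bears only on the WT ranges given beside the KO values. Chance flags about 1 in 20 groups. WT replicate 1 was the highest for the muscle genes Myh4 at 950.4 CPM, Ckm at 761, Tnnt3 at 723, Tnnc2 at 292, Myl1 at 288, Ttn at 138, Pgam2 at 64.0, Xirp2 at 37.5 and Casq1 at 34.7. It was also the highest for Fgg at 399.8, S100a9 at 107, Fos at 76.0 and Ddit3 at 50.5 CPM, and the lowest for Lman1 at 141 and Gclc at 29.4 CPM. Its mean log2 CPM of neutrophil markers was 2.05. WT replicate 4 was the lowest for T and NK cell markers, at -1.90, and for B and plasma cell markers, at -1.38.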

How the results depend on the processing

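The cause of each change below was not tested. The 480 tumour calls became 1027 with DESeq2, 299 with the replicate number as a block, 233 with KO1 and KO2 as 1 group, 273 with all 13 tumours in the fit, 1049 against KO1 alone, 118 against KO2 alone, 40 in a test against 1.5-fold and 1 with the skeletal muscle level as a covariate. The 633 calls of KO1 against KO2 became 1459, 400 and 196 with DESeq2, length-scaled counts and the replicate block. The tumour minus cell difference gave 1463 with DESeq2 and 584 with the replicate block, and the cell contrast 2244 with length-scaled counts. The labels do not say whether replicate numbers pair libraries. Deviations from the line means had correlations of -0.40 to 0.16 between same-numbered tumours of different lines, and -0.24 to 0.44 between those of different number. With 3 tumours a line these values cannot decide whether a pairing exists. With the replicate block 26 secretory genes outside the XBP1s and ATF6 lists and 1 ATF4 and CHOP target were higher.

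With the muscle covariate 0 members of the XBP1s, ATF6, ATF4 and CHOP and secretory lists were higher and 0 muscle markers lower. In the test against 1.5-fold 7 XBP1s targets, 1 ATF6 target, 1 ATF4 and CHOP target, 10 secretory genes, 3 of them outside the XBP1s and ATF6 lists, and 1 muscle marker passed. Against KO2 alone 40 secretory genes, 16 outside these lists, 1 ATF4 and CHOP target and 1 muscle marker passed. DESeq2 called 73 secretory genes outside these lists, the leukocyte covariate left 11 muscle markers, and all 13 tumours in the fit left 1 of these and 1 ATF4 and CHOP target, as did KO1 and KO2 as 1 group for the ATF4 and CHOP targets. Among members with a mean log2 CPM of 2 or more, 0 basement membrane and 0 neutrophil markers were called.

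Leaving out each library in turn, counts ran from 99 to 636 in tumours, 1787 to 3801 in cells, 302 to 1334 for their difference and 68 to 820 for KO1 against KO2. The lists ran from 41 to 85 for the secretory lists, 17 to 53 outside the XBP1s and ATF6 lists, 1 to 3 for ATF4 and CHOP targets and 1 to 24 for muscle markers.

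Some values that had not passed changed sign. Against KO2 alone these were Asns at -0.095, Ddit3 at -0.19 and Trib3 at -0.0088, and the called Msmo1 and Sqle were at -0.021 and -0.059. Myc was at -0.024 against KO1 alone, and the called Fga was at -0.097 with the muscle covariate. In cells, length-scaled counts gave Sec24d -0.31, Cdk5rap3 -0.036, Ppapdc1b -0.10, Ssr2 0.079 and Tmem39a 0.044. Fga had a tumour minus cell difference of 0.26 with DESeq2.

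Without 1 library, tumour values of genes that had not passed ran from -0.39 to 0.65 for Ddit3, -0.27 to 1.01 for Trib3, -0.036 to 0.087 for Asns and -0.048 to 0.33 for Myc. Tumour minus cell values ran from -0.11 to 0.044 for Xbp1, -0.24 to 3.84 for Cftr, -0.76 to 3.10 for Prss53, -1.37 to 2.003 for Fga, -1.48 to 4.25 for Calca, -0.034 to 0.26 for Lsp1 and -1.34 to 0.10 for Slc13a4. Cell values ran from -0.0036 to 0.031 for Creb3l2, -0.038 to 0.76 for Bhlha15, -0.79 to 0.096 for Fgb, -0.083 to 0.075 for Ssr2, -0.17 to 0.0021 for Lman1, -0.064 to 0.011 for Golgb1 and -0.16 to 0.28 for Ppapdc1b.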
